A study of Homo sapiens with 9 samples.

Results

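The genes described are 41 genes of DNA double-strand break repair, taken by symbol from the 61155 gene symbols in each of 9 RNA count tables. They cover homologous recombination, end joining and end resection outside the Fanconi pathway. XRCC5, whose Ku80 protein has been reported as an FBXL12 substrate, is among them. Of the 41 genes, 40 had enough reads to be tested among 17759 tested genes, and NHEJ1 did not.

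The libraries were made from total RNA of MDA-MB-231 cells, an established human line of basal-like breast cancer. Control cells (WT) kept FBXL12 and carried a scrambled guide RNA. FBXL12-KO #1 (KO1) and FBXL12-KO #2 (KO2) are 2 clones with FBXL12 knocked out, and each of the 3 groups gave 3 libraries. FBXL12 encodes an F-box protein, the substrate-recognising part of an SCF ubiquitin ligase, which acts on proteins, while the values here are RNA levels. Each clone descends from 1 cell, so a difference between a clone and WT can belong to the clone as well as to the knockout, and these cannot be told apart within 1 clone. Both clones were compared with the same WT libraries. Whether the 3 libraries of a group are separate cultures is not stated in the labels. The p-values therefore rest on the spread between libraries alone, and that spread may be technical.

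FBXL12 RNA stood at 22.2, 23.3 and 21.4 CPM in WT, 9.56, 9.95 and 9.40 CPM in KO1 and 6.14, 6.36 and 5.33 CPM in KO2. CPM here is a gene's read count scaled to the size of its library with TMM factors. The log2 difference from WT was -1.21 (SE 0.08, adjusted p = 2.65e-08) in KO1 and -1.91 (SE 0.08, adjusted p = 7.29e-11) in KO2, and no library of a clone reached a WT library. The mesenchymal markers VIM, CD44 and AXL had their lowest library at 2661, 1004 and 1583 CPM, and the basal keratins KRT5, KRT14 and KRT17 did not exceed 0.321 CPM in any library. The summed leukocyte markers ranged from 0.516 to 1.51 CPM. Total counts ranged from 52427841 to 97243363. The libraries differed in how genes rich and poor in G and C were read: the median deviation of the 1051 GC-richest genes minus that of the 1051 GC-poorest ranged from 0.129 to 0.458 (log2) in WT, from -0.422 to 0.129 in KO1 and from -0.352 to 0.005 in KO2. WT replicate 2 and KO1 replicate 2 lay at the ends of that range, and values with each library's GC trend removed are given for the genes whose call in a clone changed or whose called value moved by over 1.5 times.

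A double-strand break is first bound by the MRE11-RAD50-NBN complex or by the Ku dimer of XRCC5 and XRCC6, and ATM signals from it. Resection of the ends exposes single strands, and the joint molecules formed when these exchange strands with the sister chromatid are dissolved by BLM with TOP3A or cut by nucleases such as MUS81-EME1. Ends that are not resected are joined by DNA-PKcs, XRCC4 and LIG4, and short homologies at resected ends can be joined by POLQ.

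In KO1, 16 of the 40 tested repair genes were called at an adjusted p under 0.05, or 40%, beside 34.8% of all tested genes. Of these, 7 rose and 9 fell, where 18.0% of all genes rose and 16.8% fell. KO2 had 21 called, or 52.5% beside 49.4% of all genes, 9 higher and 12 lower, where each direction held 24.7% of all genes. Both shares lay near those of all genes, and the median log2 change of the 40 genes was 0.01 in each clone, beside -0.0049 in KO1 and -0.0077 in KO2 over all genes. In the mean of both clones against WT, 20 genes were called, or 50% beside 40.8% of all genes, 11 higher and 9 lower, where each direction held 20.4% of all genes. A call in the mean need not be a change shared by the clones: XRCC5 and BARD1, among the 11, were called lower in KO1. Of these 20 calls, 9 were lost under at least 1 alternative processing or with a library left out. KO1 and KO2 differed from each other in 20 of the 40 genes, or 50% beside 48.9% of all genes. KO1 was the higher clone in 10 and the lower in 10, where 23.9% and 24.9% of all genes were. Better expressed genes were called more often. Of the 10506 genes with a known position and a mean of at least 2 on the log2 CPM scale, 4801 were called in KO1 and 6266 in KO2. For the mean of both clones it was 5438 of them, and between the clones 6149.

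The genes sorted into 4 patterns. RAD51AP1, XRCC3, TOP3A, MUS81 and RNF8, 5 of 40 (12.5%), fell in both clones, a pattern held by 7.58% of all genes. DESeq2 and limma-voom each gave 6 of 40 (15%), beside 7.94% and 8.20% of all genes, with RECQL4 called in KO1 as well. MRE11, RBBP8, BLM, ATM, XRCC5, BARD1 and XRCC1, 7 of 40 (17.5%), were called in opposite directions in the clones, a pattern held by 7.51% of all genes. No gene was called higher in both with edgeR, DESeq2 or limma-voom, where 7.48% of all genes were by edgeR; at an unadjusted p under 0.05 there was 1 by each tool. A further 13 genes were called in 1 clone, and 15 in neither.

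**Figure D1:**
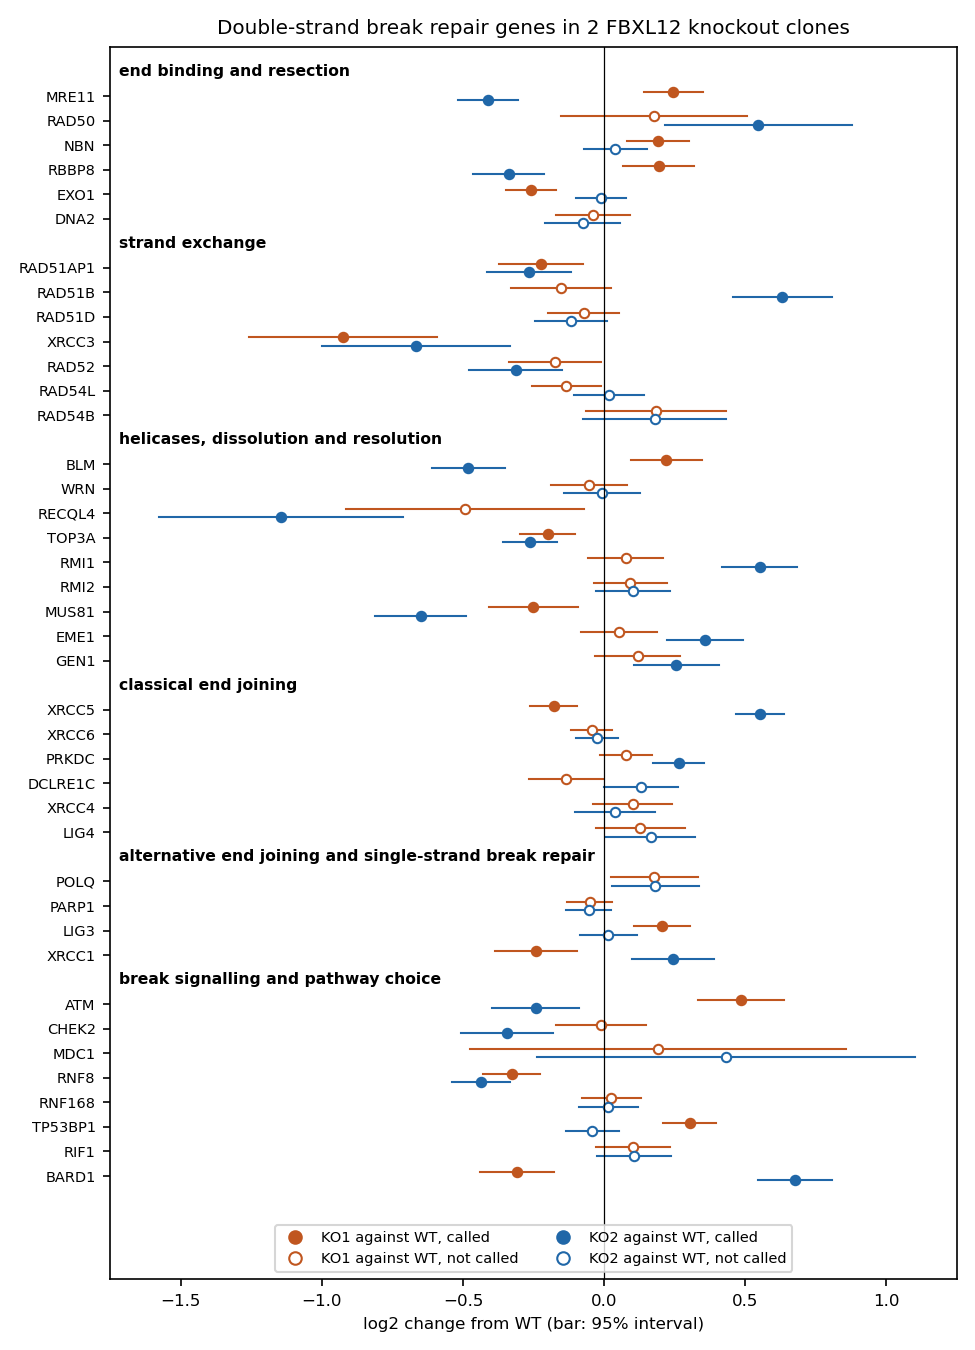
Log2 change from WT of the 40 tested repair genes in KO1 (orange) and KO2 (blue), ordered by role; bars are 95% intervals and filled points are genes called at an adjusted p under 0.05. The 5 genes with both points filled on the left are RAD51AP1, XRCC3, TOP3A, MUS81 and RNF8, and in 7 genes the filled points lie on opposite sides of 0.

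The stretches before the start sites of the 5 genes that fell in both clones, and of BARD1, the gene that differed most between the clones, are shown so that their letters can be compared. They come from RefSeq, build GRCh38.p14, and run 5′ to 3′ on the strand of the gene. Each is the longest unbroken run, within the 250 bases before a RefSeq start, that lies in no annotated exon. Capitals mark CCAAT or its reverse complement ATTGG, a box bound by the factor NF-Y.
RAD51AP1: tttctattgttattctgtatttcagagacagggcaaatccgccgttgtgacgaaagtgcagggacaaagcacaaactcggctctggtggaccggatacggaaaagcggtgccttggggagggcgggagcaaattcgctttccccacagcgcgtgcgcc
XRCC3: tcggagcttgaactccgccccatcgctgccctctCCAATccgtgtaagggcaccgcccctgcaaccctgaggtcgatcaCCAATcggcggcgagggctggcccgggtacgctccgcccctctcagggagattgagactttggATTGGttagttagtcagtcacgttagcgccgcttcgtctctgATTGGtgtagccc
TOP3A: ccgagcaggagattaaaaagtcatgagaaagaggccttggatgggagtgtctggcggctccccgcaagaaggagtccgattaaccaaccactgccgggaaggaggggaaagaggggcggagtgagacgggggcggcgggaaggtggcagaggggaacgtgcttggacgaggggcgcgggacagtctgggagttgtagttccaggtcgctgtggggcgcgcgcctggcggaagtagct
MUS81: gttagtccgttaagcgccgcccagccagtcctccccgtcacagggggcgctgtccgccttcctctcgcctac
RNF8: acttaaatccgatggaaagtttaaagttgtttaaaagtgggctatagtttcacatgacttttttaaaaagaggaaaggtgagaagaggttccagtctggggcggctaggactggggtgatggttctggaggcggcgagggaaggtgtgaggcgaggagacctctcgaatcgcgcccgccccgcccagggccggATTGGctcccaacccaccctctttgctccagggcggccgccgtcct
BARD1: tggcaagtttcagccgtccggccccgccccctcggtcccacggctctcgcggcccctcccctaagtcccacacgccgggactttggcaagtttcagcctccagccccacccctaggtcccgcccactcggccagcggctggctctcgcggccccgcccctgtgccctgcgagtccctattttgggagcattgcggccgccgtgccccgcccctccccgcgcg
The RAD51AP1 stretch is chr12:4538640-4538797 on the plus strand, XRCC3 is chr14:103715505-103715701 on the minus strand, and TOP3A is chr17:18315008-18315244 on the minus strand. MUS81 is chr11:65860333-65860404 on the plus strand, RNF8 is chr6:37353733-37353971 on the plus strand, and BARD1 is chr2:214809712-214809933 on the minus strand. The MUS81 stretch lies inside the gene as GENCODE places it, at chr11:65857126-65867653. XRCC3 held 4 such boxes in its 197 bases, 2 on each strand, RNF8 held 1, and the other 4 stretches held none. When uncut windows of 300 bases at any listed start of a gene were searched, RAD51AP1 and MUS81 held the box too. It was thus in 4 of the 5 genes that fell in both clones, and was not found in TOP3A or BARD1. The GC content of the stretches shown ranged from 55.1% in RAD51AP1 to 73.4% in BARD1.

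Promoter windows of 300 bases, 250 before the start and 50 after it, were found for 33 of the 41 genes and for 27305 genes in all. A gene with more than 1 window was counted if any of them held the motif. CCAAT on either strand was in 19 of the 33 genes (57.6%) and in 39.7% of all genes with a window. The ETS letters CCGGAAG were in 13 of 33 (39.4%, beside 12.2%), among them MRE11, BLM and ATM. Letters of the E2F site, searched as TTTCCCGC, TTTGGCGC, TTTCGCGC or TTTGCCGC, were in EXO1, GEN1, RMI1 and XRCC6, 4 of 33 (12.1%, beside 3.99%). TTTGAA, the core of the cell cycle homology region, was in 5 of 33 (15.2%, beside 18.2%). None of these motifs contains another, though the E2F form TTTCCCGC and the ETS letters share GGAA on one of their strands. The genes that hold E2F letters did not move alike: EXO1 was lower in KO1, GEN1 and RMI1 were higher in KO2, and XRCC6 was called in neither clone.

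Among the genes that bind and resect ends, the nuclease gene MRE11 and RBBP8, which encodes its cofactor CtIP, went up in KO1 and down in KO2. MRE11, at chr11:94415578-94493908 (GRCh38, minus strand), stood at 56.7, 54.4 and 56.9 CPM in WT, 63.04, 69.4 and 66.6 CPM in KO1 and 42.8, 40.9 and 42.8 CPM in KO2. The 3 groups did not overlap, with KO1 highest and KO2 lowest. The log2 change of MRE11 was 0.24 (SE 0.05, adjusted p = 0.00127) in KO1 and -0.41 (SE 0.05, adjusted p = 6.01e-06) in KO2, and KO1 minus KO2 was 0.65 (SE 0.05, adjusted p = 2.69e-08). With the GC trend removed the KO1 value was 0.15. RBBP8 stood at 163, 159 and 158 CPM in WT, 171, 202 and 177 CPM in KO1 and 121, 124 and 136 CPM in KO2. Its 3 groups were separate too, in the same order, and KO1 replicate 2 was the highest library. The KO1 change of RBBP8 was 0.19 (SE 0.06, adjusted p = 0.0199), which was 0.12 and not called (adjusted p = 0.0719) without KO1 replicate 2, lost its call without WT replicate 3 (0.20, adjusted p = 0.0547), and was 0.10 with the GC trend removed. The KO2 change was -0.34 (SE 0.06, adjusted p = 0.000246).

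Of the other subunits of its complex, NBN was called in KO1 and RAD50 in KO2. NBN, the third subunit of the complex, rose in KO1 by 0.19 (SE 0.05, adjusted p = 0.00911), or 0.09 with the GC trend removed, and was at 0.04 in KO2 (95% interval -0.07 to 0.15). RAD50 cannot be read from these tables: it had 87 to 159 reads per library, 79.7% of its exon bases lie in exons of AC116366.3 on the same strand, and that gene is listed at 0 in all libraries. Its 3 WT libraries held 1.34, 1.43 and 1.46 CPM, KO1 1.55, 1.53 and 1.69 CPM and KO2 1.66, 2.41 and 2.07 CPM. The KO2 libraries lay above WT and overlapped KO1. The KO2 value of RAD50 was 0.55 (SE 0.15, adjusted p = 0.00844) and was no longer called without KO2 replicate 2 (0.41, adjusted p = 0.06). EXO1, the exonuclease of long-range resection, fell in KO1 by 0.26 (SE 0.04, adjusted p = 0.000207), from 75.1 ± 1.61 CPM (SD, n = 3) to 62.7 ± 1.09 CPM. In KO2 it stood at 74.5 ± 0.783 CPM, within the WT range, and the clones differed in EXO1 by -0.25 (SE 0.04, adjusted p = 0.000135). DNA2, the nuclease that works beside it, was called in neither clone (-0.04 and -0.08), though both were called with the GC trend removed (-0.13 and -0.12).

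Of the 7 strand exchange genes, KO1 had 2 called, both lower (28.6%, beside 34.8% of all genes), and KO2 had 4, of which 3 were lower (57.1%, beside 49.4%). XRCC3, a gene of homologous recombination, showed the widest drop of the 40 genes in KO1. Its libraries held 21.9, 25.6 and 20.9 CPM in WT, 14.1, 9.36 and 12.5 CPM in KO1 and 14.2, 16.1 and 12.7 CPM in KO2. Every library of both clones lay below every WT library, and the clones overlapped each other. The change was -0.93 (SE 0.15, adjusted p = 0.000983) in KO1 and -0.67 (SE 0.15, adjusted p = 0.00412) in KO2, and with the GC trend removed it was -0.69 and -0.37. Exons of KLC1 on the opposite strand cover 76.7% of the exon bases of XRCC3, and no source used here gives the strand setting of the counting, so reads of KLC1 cannot be told apart from its own. Smaller overlaps, mainly with opposite-strand genes and covering 14.1% to 30.5% of exon bases, hold for RAD54L, MUS81, EME1, LIG3, XRCC1 and TP53BP1.

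RAD51AP1, whose protein promotes strand pairing, stood at 55.4, 50.8 and 52.5 CPM in WT, 42.4, 50.5 and 42.99 CPM in KO1 and 42.97, 41.7 and 47.2 CPM in KO2. KO1 replicate 2 came within 1 CPM of the lowest WT library, and the other 5 knockout libraries lay from 41.7 to 47.2 CPM. The change was -0.22 (SE 0.07, adjusted p = 0.0212) in KO1 and -0.27 (SE 0.07, adjusted p = 0.00524) in KO2. The KO1 call was lost without KO1 replicate 1 (-0.16), KO1 replicate 3 (-0.17), WT replicate 1 (-0.17) or WT replicate 3 (-0.22), and with a replicate block (-0.22, adjusted p = 0.0545). RAD51B, another gene of homologous recombination, went the other way in KO2: its libraries held 10.1, 9.39 and 9.88 CPM in WT, 7.87, 9.65 and 8.91 CPM in KO1 and 15.3, 14.6 and 15.6 CPM in KO2. All KO2 libraries were above all others, while KO1 overlapped WT. RAD51B rose in KO2 by 0.63 (SE 0.08, adjusted p = 1.37e-05) and was at -0.15 (95% interval -0.33 to 0.02) in KO1, which was called with the GC trend removed (-0.22, adjusted p = 0.0135). Between the clones its difference was -0.78 (SE 0.08, adjusted p = 1.12e-06).

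RAD52, the annealing protein gene, changed in KO2 by -0.31 (SE 0.08, adjusted p = 0.0034) and was at -0.17 in KO1 (95% interval -0.34 to -0.01), and the clones were not called different. RAD51D, RAD54L and RAD54B were called in neither clone, with values from -0.13 to 0.18. RAD54L, a translocase gene, differed between the clones by -0.15 (SE 0.06, adjusted p = 0.0405), a call lost in 11 of the alternatives. RAD54B shares 59.1% of its exon bases with FSBP.

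The 9 helicase, dissolution and resolution genes had 3 called in KO1 (33.3%, beside 34.8% of all genes) and 7 in KO2 (77.8%, beside 49.4%). BLM encodes the helicase that dissolves joint molecules together with TOP3A, RMI1 and RMI2, and the genes of that complex did not move together. BLM stood at 54.1, 54.9 and 58.7 CPM in WT, 61.5, 68.6 and 65.2 CPM in KO1 and 39.03, 37.9 and 43.2 CPM in KO2. The groups were separate, KO1 above WT and KO2 below it. The change of BLM was 0.22 (SE 0.06, adjusted p = 0.0092) in KO1, or 0.14 with the GC trend removed, and -0.48 (SE 0.06, adjusted p = 8.32e-06) in KO2. TOP3A, the topoisomerase gene, held 140.2, 148 and 140.4 CPM in WT, 130.3, 118 and 125 CPM in KO1 and 117, 119.6 and 121 CPM in KO2. All 6 knockout libraries of TOP3A were below the WT libraries. Its change was -0.20 (SE 0.04, adjusted p = 0.00289) in KO1, or -0.12 with the GC trend removed, and -0.26 (SE 0.05, adjusted p = 0.000182) in KO2.

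RMI1, the scaffold of the complex, was read at 60.1, 55.6 and 55.02 CPM in WT, 54.95, 65.7 and 59.5 CPM in KO1 and 82.2, 80.6 and 87.5 CPM in KO2. KO2 was above all other libraries and KO1 overlapped WT. RMI1 rose in KO2 by 0.55 (SE 0.06, adjusted p = 3.01e-06), was at 0.08 in KO1 (95% interval -0.06 to 0.21), and differed between the clones by -0.47 (SE 0.06, adjusted p = 1.13e-05). RMI2, at 0.09 in KO1 and 0.10 in KO2, was called in neither.

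RECQL4, a helicase gene with the highest GC content of the 41 (65.3%), showed the largest drop in KO2. Its libraries held 35.5, 40.9 and 36.9 CPM in WT, 32.1, 20.8 and 27.6 CPM in KO1 and 16.8, 20.3 and 14.02 CPM in KO2. The groups did not overlap, but KO1 replicate 2, at 20.8 CPM, came close to KO2 replicate 2. The KO2 change was -1.14 (SE 0.19, adjusted p = 0.00138), or -0.67 with the GC trend removed. In KO1 it was -0.49 (SE 0.18, adjusted p = 0.0708), which edgeR did not call, and -0.13, also not called, with the GC trend removed. The KO1 change was called in 7 of 18 alternatives, among them DESeq2, limma-voom, a filter at 1 CPM and the fit of only the 2 groups compared. The clones differed by 0.65 (SE 0.18, adjusted p = 0.0208), which was not called without KO1 replicate 1 (0.52, adjusted p = 0.0504), KO1 replicate 3 (0.64, adjusted p = 0.0507), KO2 replicate 1 (0.65, adjusted p = 0.0553) or KO2 replicate 3 (0.53, adjusted p = 0.056). WRN, a related helicase gene, was called in neither clone (-0.05 and -0.01), but in KO1 was called with the GC trend removed (-0.15, adjusted p = 0.0112).

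MUS81 and EME1 encode a nuclease dimer. In KO2 MUS81 fell and EME1 rose. MUS81 stood at 24.5, 26.8 and 24.99 CPM in WT, 23.8, 19.4 and 20.9 CPM in KO1 and 16.2, 16.9 and 15.5 CPM in KO2. All knockout libraries of MUS81 lay below WT, and KO2 lay below KO1. Its KO2 change was -0.65 (SE 0.08, adjusted p = 4.25e-06), or -0.43 with the GC trend removed. The KO1 change was -0.25 (SE 0.07, adjusted p = 0.0169). It was no longer called with the GC trend removed (-0.06, adjusted p = 0.366), nor without KO1 replicate 2 (-0.18), KO1 replicate 3 (-0.22) or WT replicate 2 (-0.20). EME1 rose in KO2 by 0.36 (SE 0.06, adjusted p = 0.000234), from 17.5 ± 0.657 to 22.5 ± 0.764 CPM (SD, n = 3), and was at 0.05 in KO1. GEN1, the other resolvase gene, rose in KO2 by 0.26 (SE 0.07, adjusted p = 0.00735) and was at 0.12 in KO1, a difference between clones that was not called, and was with the GC trend removed (-0.18, adjusted p = 0.00123).

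Of the Ku dimer genes, XRCC5 moved in both clones, in opposite directions, and XRCC6 was called in neither. XRCC5 (Ku80), at chr2:216107464-216206303 (GRCh38, plus strand), stood at 791, 774 and 783 CPM in WT, 662, 726 and 688 CPM in KO1 and 1131, 1144 and 1169.7 CPM in KO2. The groups were separate: every KO1 library was below WT and every KO2 library was above it. The change of XRCC5 was -0.18 (SE 0.04, adjusted p = 0.00252) in KO1 and 0.55 (SE 0.04, adjusted p = 2.1e-08) in KO2, and KO1 minus KO2 was -0.73 (SE 0.04, adjusted p = 6.25e-10). XRCC6 (Ku70), its partner, held 810.3, 804 and 789.9 CPM in WT, 763, 788 and 782 CPM in KO1 and 792, 781 and 789 CPM in KO2. All XRCC6 values lay between 763 and 810.3 CPM, with KO1 just below WT and KO2 overlapping it. Its change was -0.04 (95% interval -0.12 to 0.03) in KO1 and -0.03 (-0.10 to 0.05) in KO2, and neither was called.

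PRKDC, which encodes the DNA-PKcs kinase that Ku recruits, was read at 411, 404 and 427 CPM in WT, 443, 419 and 448 CPM in KO1 and 488, 482 and 521 CPM in KO2. KO2 lay above all other libraries, and KO1 overlapped WT. PRKDC rose in KO2 by 0.26 (SE 0.04, adjusted p = 0.000105), was at 0.08 in KO1 (95% interval -0.01 to 0.17), and differed between the clones by -0.19 (SE 0.04, adjusted p = 0.00186). DCLRE1C (the Artemis nuclease), XRCC4 and LIG4 (the ligase) were called in neither clone, with changes from -0.13 to 0.16. LIG4 in KO2 was called in 5 of 18 alternatives. For DCLRE1C, at -0.13 in KO1 and 0.13 in KO2, the clones differed by -0.26 (SE 0.06, adjusted p = 0.00205), and the KO1 value was called with the GC trend removed (-0.19, adjusted p = 0.00146). NHEJ1 (XLF) had 1 to 13 reads per library and was not tested. As with RAD50, most of its exon bases, 65.4%, lie in exons of another gene on the same strand, AC068946.1, which had 4 to 23 reads.

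Of the 4 genes of alternative end joining and single-strand break repair, KO1 had 2 called (50%, beside 34.8% of all genes) and KO2 had 1 (25%, beside 49.4%). POLQ, the polymerase of microhomology joining, was at 0.18 in KO1 and 0.18 in KO2, called in neither alone, though KO2 was called in 7 of 18 alternatives, among them DESeq2 and removal of the GC trend (0.14, adjusted p = 0.0461). The mean of both clones was called for POLQ, at 0.18 (SE 0.06, adjusted p = 0.0331). That call was lost with the GC trend removed (0.12), and without KO1 replicate 3 (0.18), KO2 replicate 2 (0.18), KO2 replicate 3 (0.16), WT replicate 1 (0.21) or WT replicate 2 (0.11). PARP1 was called in neither, at -0.05 and -0.06, and in KO2 was called with the GC trend removed (-0.07, adjusted p = 0.0426). LIG3 rose in KO1 by 0.21 (SE 0.05, adjusted p = 0.00318) and was at 0.01 in KO2, a difference between clones of 0.19 (SE 0.05, adjusted p = 0.00324). XRCC1, the scaffold that LIG3 binds, was read at 19.6, 21.2 and 20.9 CPM in WT, 18.5, 16.5 and 17.2 CPM in KO1 and 25.8, 24.5 and 22.8 CPM in KO2. KO1 lay below WT and KO2 above it, without overlap. The KO2 change of XRCC1 was 0.24 (SE 0.07, adjusted p = 0.00743), or 0.44 with the GC trend removed, and it was not called without KO2 replicate 1 (0.19, adjusted p = 0.0553). The KO1 change was -0.24 (SE 0.07, adjusted p = 0.0123). It was not called with the GC trend removed (-0.07), nor without KO1 replicate 3 (-0.22), WT replicate 2 (-0.21) or WT replicate 3 (-0.22). Between the clones XRCC1 differed by -0.49 (SE 0.07, adjusted p = 2.23e-05).

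In break signalling and pathway choice, each clone had 4 of 8 genes called (50%, beside 34.8% of all genes in KO1 and 49.4% in KO2). ATM, the kinase gene, held 73.3, 63.8 and 72.4 CPM in WT, 93.8, 101 and 98.97 CPM in KO1 and 55.1, 55.9 and 66.1 CPM in KO2. KO1 was above every other library, and KO2 replicate 3 overlapped WT. ATM rose in KO1 by 0.48 (SE 0.07, adjusted p = 0.00014) and differed between the clones by 0.73 (SE 0.07, adjusted p = 1.2e-06). Its KO2 change of -0.24 (SE 0.07, adjusted p = 0.012) was not called without KO2 replicate 1 (-0.20), KO2 replicate 2 (-0.21), WT replicate 1 (-0.20) or WT replicate 3 (-0.22). CHEK2, a kinase that ATM activates, changed in KO2 by -0.34 (SE 0.08, adjusted p = 0.00155) and was at -0.01 in KO1, and the clones differed by 0.33 (SE 0.08, adjusted p = 0.00182).

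RNF8, the ubiquitin ligase gene that acts at marked chromatin beside a break, fell in both clones with little spread. Its libraries held 56.6, 59.8 and 57.1 CPM in WT, 45.2, 46.4 and 46.5 CPM in KO1 and 40.8, 43.6 and 43.6 CPM in KO2. The lowest WT library lay above the highest knockout library, and KO2 lay below KO1. The change was -0.33 (SE 0.05, adjusted p = 8.7e-05) in KO1 and -0.44 (SE 0.05, adjusted p = 2.32e-06) in KO2, and -0.37 and -0.47 with the GC trend removed. RNF168, the ligase that follows it, was at 0.03 and 0.01 and was called in neither, with 95% intervals of -0.08 to 0.13 and -0.09 to 0.12. MDC1, the adaptor upstream of RNF8, scattered from 6.94 to 13.6 CPM within WT alone, so its changes of 0.19 and 0.43 could not be separated from that spread.

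Of the genes that bear on the choice between pathways, TP53BP1 and BARD1 differed between the clones and RIF1 was not called different. TP53BP1, whose protein holds back resection, rose in KO1 by 0.30 (SE 0.04, adjusted p = 8.49e-05), from 80.5 ± 0.915 to 99.3 ± 1.05 CPM (SD, n = 3). In KO2 it was at -0.04, and the clones differed by 0.35 (SE 0.04, adjusted p = 8.7e-06). RIF1, which acts with it, was called in neither clone (0.10 and 0.11). BARD1, the partner of BRCA1, was read at 36.5, 33.9 and 38.3 CPM in WT, 29.2, 29.6 and 29.02 CPM in KO1 and 55.4, 55.6 and 62.8 CPM in KO2. The 3 groups were widely separate, KO1 lowest and KO2 highest. The change of BARD1 was -0.31 (SE 0.06, adjusted p = 0.00116) in KO1 and 0.68 (SE 0.06, adjusted p = 2.6e-07) in KO2. KO1 minus KO2, at -0.98 (SE 0.06, adjusted p = 3.06e-09), was the widest of the 40 genes.

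The genes were next set beside the genes that lie around them. For each, the median log2 change of the 20 nearest tested genes by start position was taken from the same fit. BARD1 and XRCC5 lie 1.38 Mb apart on chromosome 2 with 6 tested genes between them and share 12 of their 20 neighbours. In KO2, 18 of the 20 neighbours of XRCC5 were above 0, with a median of 0.42, and 17 of the 20 around BARD1, with a median of 0.47. In KO1 the medians were 0.04 and -0.02. In KO2 the 2 genes thus changed by 0.55 and 0.68 in a stretch that was higher as a whole, while their KO1 changes of -0.18 and -0.31 had neighbours near 0.

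MRE11 and ATM lie 13.81 Mb apart on chromosome 11 and share no neighbours. In KO1, 19 of 20 genes around MRE11 and 18 of 20 around ATM were above 0, with medians of 0.32 and 0.39. The KO2 medians were -0.12 and -0.11, with 12 of 20 genes below 0 around each. Around RBBP8 on chromosome 18 the medians were 0.26 in KO1 and -0.20 in KO2, and around BLM on chromosome 15 they were 0.15 and -0.45. For these 4 genes the neighbours had the sign of the gene in both clones. XRCC1 on chromosome 19, also called in opposite directions, had neighbours at 0.05 in KO1 and 0.04 in KO2, beside its own -0.24 and 0.24. All 20 genes around RECQL4 at the end of chromosome 8 were below 0 in KO2, with a median of -0.72, beside its own -1.14. With the GC trend removed that median was -0.34, beside -0.67 for the gene.

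Genes that fell in both clones gave a mixed picture. Around RNF8 on chromosome 6 the medians were -0.25 in KO1 and -0.29 in KO2, beside its own -0.33 and -0.44. Neighbours of RAD51AP1 on chromosome 12 were at 0.03 and 0.10, opposite to the gene. For XRCC3 on chromosome 14 they were at -0.39 in KO1 and 0.08 in KO2, beside -0.93 and -0.67. Those of TOP3A on chromosome 17 were at -0.20 and -0.11, and those of MUS81 on chromosome 11 at -0.11 and -0.17, with the sign of the gene. With the GC trend removed the MUS81 neighbours were at 0.03 and 0.07, opposite to the gene, and the TOP3A neighbours at -0.03 and -0.10. Those of RNF8 were then at -0.28 and -0.12, of RAD51AP1 at 0.02 and 0.10, and of XRCC3 at -0.32 and 0.17. RAD51B, on chromosome 14 like XRCC3, had neighbours at -0.29 in KO1 and 0.11 in KO2, beside its own -0.15 and 0.63. TP53BP1 kept apart from its surroundings in KO2: its 20 neighbours had a median of -0.32 and the gene was at -0.04, while in KO1 both were near each other, at 0.31 and 0.30.

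Over the called genes, the sign matched that of the neighbours in 12 of 16 in KO1, 17 of 21 in KO2 and 18 of 20 between the clones. Among all called genes with a mean of at least 2 on the log2 CPM scale it matched in 77.7%, 72.9% and 70.4%. Across the 40 genes Pearson's r between a gene and its neighbours was 0.723, 0.732 and 0.842, and across those 10506 genes it was 0.481, 0.524 and 0.535. These are descriptions across genes, which share libraries and, for near pairs such as XRCC5 and BARD1, neighbours. DNA copy number was not analysed here, and its part in the changes was not tested.

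**Figure D2:**
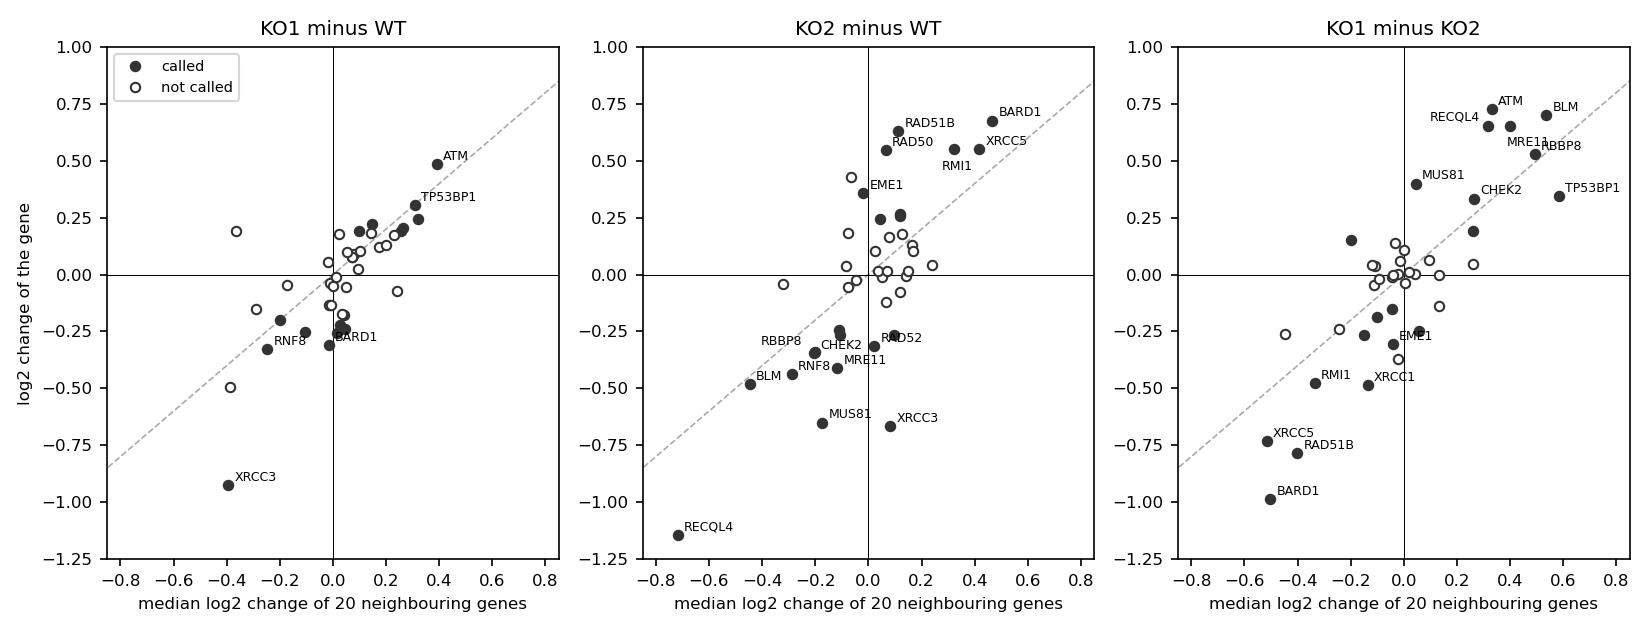
Log2 change of each of the 40 repair genes (vertical) against the median log2 change of its 20 nearest tested genes (horizontal), for KO1 minus WT, KO2 minus WT and KO1 minus KO2; filled points are called genes and the dashed line marks equal values. BARD1 and XRCC5 lie with raised neighbours in KO2, RECQL4 with lowered ones, and XRCC3 lies with neighbours near 0 in KO2.

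The GC content of a gene's exons moved with part of these values. RECQL4, XRCC3, MUS81 and XRCC1, the 4 genes with the highest GC content (58.7% to 65.3%), all had higher values in both clones once each library's GC trend was removed. The step itself moves GC-rich genes that way, because the GC trend differed between the WT and the clone libraries. Trend and group cannot be fully told apart here. The KO1 values went from -0.49 to -0.13 for RECQL4, from -0.93 to -0.69 for XRCC3 and from -0.25 to -0.06 for MUS81. In the mean of both clones, 16 genes were lower with the trend removed, beside 9 without that step. The share of all genes called lower with the trend removed was not counted, and the median shift over all genes was -0.02. Called in either direction in that contrast, the repair genes went from 20 to 27. All genes went from 7243 to 8114 of 17759. RNF8 and BARD1, with lower GC content, moved by less than 0.1 in either clone. LIG4, XRCC4 and RAD54B, the genes with the lowest GC content (35.7% to 36.4%), had lower values in both clones with the trend removed. Their KO1 values went from 0.13 to 0.02, from 0.10 to -0.01 and from 0.18 to 0.08.

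Other genes of the pathway moved in both directions as well. Of 63 tested genes from a list of 67 further double-strand break repair genes, KO1 had 10 higher and 17 lower and KO2 had 21 higher and 16 lower, with medians of -0.05 and 0.03. The mean of both clones had 18 higher and 17 lower. The called share was 42.9% in KO1, 58.7% in KO2 and 55.6% in the mean, beside 34.8%, 49.4% and 40.8% of all genes. By direction, 18.0% of all genes rose and 16.8% fell in KO1, and each direction held 24.7% in KO2 and 20.4% in the mean. SMC5 was at 0.12, not called, in KO1 and 0.92 in KO2, and BABAM2 was at 0.18 and 0.50. BABAM1, which sits in the same BRCA1-A complex as BABAM2, fell to -0.59 and -0.56. SWSAP1, a gene of homologous recombination, was at -0.46 and -1.24, and the helicase gene RTEL1 at -0.74 and -1.24.

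Many repair genes are transcribed mainly in S and G2 phase, so 34 proliferation genes were read beside them. KO1 had 3 higher and 13 lower, with a median of -0.12, and KO2 had 13 higher and 8 lower, with a median of 0.00. The called share was 47.1% in KO1 and 61.8% in KO2, beside 34.8% and 49.4% of all genes. Of all genes, 18.0% rose and 16.8% fell in KO1, and 24.7% went each way in KO2. MKI67 was at -0.11, not called, in KO1 and 0.52 in KO2. TOP2A was at 0.10, not called, and 0.40, and CCNE1 at 0.11, not called, and 0.78. AURKB was at -0.42 and -0.16, MCM7 at -0.28 and -0.15, and CCNB2 at 0.02, not called, and -0.38. The part of proliferation in the changes of the repair genes was not tested. In bulk RNA, a change in all cells and a change in a share of them cannot be told apart.

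Per kb of exon, the Ku genes were by far the most abundant of the 41. In WT, XRCC6 stood at 244 and XRCC5 at 143 CPM per kb, ahead of PARP1 at 57.6, RBBP8 at 31.5 and PRKDC at 26.8. In KO2, XRCC5 reached 210.0 CPM per kb, beside 240.0 for XRCC6. In KO1 they stood at 127 and 237. At the low end of WT were MDC1 at 1.39, RAD51B at 1.31 and RAD54B at 0.626 CPM per kb, with RAD50 at 0.144 and NHEJ1 at 0.0265. Exon length here is the union over all transcripts, so a gene with many unused exons reads low on this scale. RAD54B, RAD50 and NHEJ1 share 59.1%, 79.7% and 65.4% of their exon bases with another gene on the same strand. Their low values may therefore not give their own RNA level.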

How the data were processed

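Total RNA of 9 libraries was sequenced by the submitters. Trim Galore and HISAT2 are named in the submitters' processing notes without versions, as are the builds hg38, GRCm38 and mm10 without a role; the symbols are human. No source used here gives the counter, its strand setting or the annotation. The deposited tables hold raw read counts per gene symbol, in whole numbers that by their values carry no normalization. Total counts ranged from 52427841 to 97243363 per library, and intervals cover the spread between libraries.

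Counts were analysed in R 4.3.3 with edgeR 4.0.16: filterByExpr, TMM scaling, and a robust quasi-likelihood fit with 1 mean per group over all 9 libraries. Genes were called at a Benjamini-Hochberg adjusted p under 0.05 over 17759 genes in each of 4 contrasts, each clone against WT, their mean against WT, and KO1 against KO2, which tests whether the clones differ. Every adjusted p is from this test unless another tool is named. Positions, exon lengths and GC content come from GENCODE release 29 (GRCh38). A GC trend per library was fitted by lowess with a span of 0.3. Alternatives were upper quartile scaling, DESeq2 1.42.0, limma-voom (limma 3.58.1), other filters, a replicate block, GC correction, only the groups compared, and leaving out each library. The script was tested on simulated counts. Libraries of a group differed by more than sampling noise, with a chi-square per degree of freedom from 6.36 to 31.9.

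The genes and lists were chosen with earlier results of these data known. Values in every library are given for genes called in both clones in the same direction, for genes called in a clone with a log2 change of at least 0.5, and for XRCC5, XRCC6 and PRKDC. MRE11, RBBP8, BLM, ATM and XRCC1 were given in full, and the other genes in the text with group values, after their values were seen. In the other lists, up to 3 genes each way were named by the smallest p in the mean of both clones; 1 gene of that selection is not reported here. Promoter sequences are RefSeq, GRCh38.p14. Those of NBN, DNA2, RAD54B, WRN, RECQL4, RMI2, XRCC5 and PRKDC were not used here.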

Additional observations from a re-analysis of the deposited data

Results flagged for a closer look

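KO1 and KO2 differed in their change from WT, by edgeR's test of KO1 minus KO2, in 20 of 40 repair genes (50%, beside 48.9% of all genes). KO1 was higher in 10, by these log2 differences: ATM 0.73, BLM 0.70, MRE11 0.65, RECQL4 0.65, RBBP8 0.53, MUS81 0.40, TP53BP1 0.35, CHEK2 0.33, LIG3 0.19 and NBN 0.15. KO2 was higher in the other 10: BARD1 -0.98, RAD51B -0.78, XRCC5 -0.73, XRCC1 -0.49, RMI1 -0.47, EME1 -0.30, DCLRE1C -0.26, EXO1 -0.25, PRKDC -0.19 and RAD54L -0.15. The NBN call was lost with upper quartile scaling (0.12), without KO1 replicate 2 (0.11) and without KO2 replicate 1 (0.13). The RAD54L call was lost in 11 of 18 alternatives. That of RECQL4 was lost in 5 of 18, among them the fit with no filter on low counts (0.67, adjusted p = 0.0567).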

How the results depend on the processing

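No repair gene called in a contrast changed its direction under an alternative. The number of genes called ranged over the libraries left out 1 at a time from 13 to 20 in KO1 and from 19 to 23 in KO2; called higher in KO1 it ranged from 6 to 11, beside 7, with 11 without KO1 replicate 1. In the mean of both clones, called genes ranged from 13 to 22, beside 20, and those higher from 6 to 14, beside 11; the lowest values, 13 and 6, came without WT replicate 2, and 7 were higher without KO2 replicate 3. Without WT replicate 2, the same contrast gave 23 of the other double-strand break repair genes, beside 35 (range 23 to 39), and 11 proliferation genes, beside 17 (range 11 to 18). Calls over all genes in this contrast also fell without WT replicate 2, to 5528 of 18480 from 7243 of 17759. In KO1 the other repair genes called ranged from 17 to 29, beside 27, with 17 without KO1 replicate 3 and without WT replicate 2. Over all genes KO1 then had 4755 of 18107 and 4690 of 18480 called, beside 6178 of 17759. With the GC trend removed, 16 genes were lower in the mean of both clones, and 16 with a replicate block besides, in place of 9. Over all genes, 8114 and 8066 of 17759 were then called in either direction, in place of 7243. The share of all genes called lower at these settings was not counted. Replicate numbers did not pair the libraries: deviations of libraries with the same number correlated from -0.526 to 0.478. A replicate block gave 15 genes called in KO1 in place of 16 and moved no count of calls by over 1.5 times. Neighbour counts were rerun with 10 or 40 neighbours and with the GC trend removed, chosen after seeing the data: genes with the sign of their neighbours numbered 11 to 14 in KO1, 14 to 17 in KO2 and 16 to 18 between the clones.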
